A study of Caenorhabditis elegans with 53 samples.

Results

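The genes described here are the most abundant targets of WAGO-class 22G-RNAs in wild-type adults of the nematode Caenorhabditis elegans. They were chosen as the genes that the deposited tables class as WAGO targets, that have no row as an ERGO or 23H target, and whose 22G-RNAs averaged at least 300 RPM (read counts scaled to library size) over the 3 wild-type libraries, leaving out Y47H10A.5. This gave 183 of 2215 WAGO-class targets. The genes were thus selected on their wild-type 22G-RNA values, so those values are a description, and comparisons that use the same wild-type libraries carry no test.

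In C. elegans, 22G-RNAs are short antisense RNAs that RNA-dependent RNA polymerases make on a target transcript. Those of the WAGO class are loaded into the worm-specific WAGO Argonautes, such as WAGO-1 and HRDE-1, and silence transposons, pseudogenes and a subset of genes, while those of the CSR class are bound by CSR-1 and mostly target genes expressed in the germ line. RDE-1 is the Argonaute that takes up primary siRNAs cut by Dicer (DCR-1) from double-stranded RNA, upstream of 22G-RNA synthesis. ALG-1 and ALG-2 are the main microRNA Argonautes. A 22G-RNA carries a 5′ triphosphate, which the enzyme pyrophosphohydrolase trims so that the RNA can be ligated into a library.

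All samples were hermaphrodites taken whole as gravid adults, except for the mixed-stage embryos. The small RNA libraries were from rde-1(ne219) adults of strain WM27 (3 libraries), wild-type N2 embryos (2), wild-type N2 adults (3), GFP::RDE-1 co-immunoprecipitates and their inputs (2 each), animals fed dcr-1 RNAi bacteria and animals fed the empty vector L4440 (2 each). The GFP::RDE-1 animals, which also served for the dcr-1 RNAi and L4440 libraries, carry the cmp133 insertion of gfp and 3xFLAG in rde-1 itself. Further co-immunoprecipitates, each with its input, came from animals on nrfl-1 RNAi, with tagged RDE-1 or tagged ALG-1 (3 libraries per group), and from animals on rde-1 RNAi or L4440, with tagged ALG-1 or tagged ALG-2 (2 per group). The ALG-1 tag is the ap423 insertion and the ALG-2 tag is the tor139 insertion on the alg-2b isoform. Column headers of the dcr-1 RNAi table add a FLAG tag on RDE-4 to the GFP::RDE-1 of the labels and call these libraries inputs. Those of the ALG-1 table on nrfl-1 RNAi have HA-alg-1, where the labels have GFP::alg-1. The labels were followed here. Messenger RNA was sequenced from rde-1(ram40) and wild-type N2 adults (3 libraries each). No source says whether libraries of a group came from separate cultures, so p-values measure the spread between these libraries, which may be technical. In whole animals, fewer cells of a type and less RNA per cell cannot be told apart.

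Each small RNA table listed features that summed to between 379889 and 982594 RPM per library. The denominator and the read depth are not given in the sources used here, so no counting interval is attached to any value. The 3 libraries labelled as adults in the embryo table held the same values, in all 25921 shared rows, as the 3 wild-type libraries of the rde-1(ne219) table, so they were counted once. Their treatment is labelled as pyrophosphohydrolase in one place and as none in the other. RPM and normalized counts here are per gene and not per length, so a gene's rank says nothing about its density of 22G-RNAs.

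In wild-type adults the 183 genes ranged from 301 to 6253 RPM, with a median of 546 RPM and an upper quartile of 1026 RPM. Of them, 46 were at or above 1000 RPM, and these 46 held 58.2% of the RPM of all 183. The wild-type libraries lay close together, with a median coefficient of variation of 3.3% per gene and a highest of 9.33%. Just inside the threshold were dpy-31, which encodes an astacin-family metalloprotease of collagen processing, at 300.8 RPM, Y48D7A.1 at 300.55 RPM and pdfr-1, a neuropeptide receptor, at 300.5 RPM. Just outside it were aex-6, a RAB-27 GTPase, at 298 RPM, ZC15.3 at 297 RPM and C16H3.3 at 293 RPM. At or above 300 RPM but not taken were eri-6, Y47H10A.5, jmjc-1, ZK262.8 and Y17D7C.3. Of the genes taken, 2 also had a row in another class, C04G2.10 and frm-1, both as targets of the ALG class.

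The most heavily targeted genes were of no single kind. The highest was linc-29 (WBGene00189951), an intergenic long noncoding RNA, with 3388, 3712 and 4156 RPM in rde-1(ne219) adults, against 6138, 6233 and 6387 RPM in wild-type adults. The second was F02C12.3 (WBGene00008517), with 2971, 3036 and 3396 RPM in rde-1(ne219) adults, against 5523, 5567 and 5877 RPM in wild-type adults. No rde-1(ne219) library of either gene reached the lowest wild-type library. The third was cars-2, a cysteinyl-tRNA synthetase gene, with 2664, 2822 and 3226 RPM in rde-1(ne219) adults, against 3526, 3559 and 3731 RPM in wild-type adults. F32A11.5 had 2903, 2964 and 3430 RPM in rde-1(ne219) adults, against 3231, 3367 and 3588 RPM in wild-type adults, and here the groups overlapped. W09C5.12 averaged 2240 RPM in rde-1(ne219) adults and 2944 RPM in wild-type adults. The other genes of the top 10 included got-1.2, a glutamate oxaloacetate transaminase gene, and sqst-1, which encodes the p62-like autophagy receptor. The gene got-1.2 had 1801, 1881 and 2094 RPM in rde-1(ne219) adults, against 2683, 2962 and 3000 RPM in wild-type adults. For sqst-1 the levels were 2123, 2167 and 2251 RPM in rde-1(ne219) adults, against 2651, 2682 and 2784 RPM in wild-type adults. F37H8.2, Y39E4B.14 and K08B4.5 completed the top 10, at 2860, 2556 and 2548 RPM in wild-type adults. Of the top 10, only F32A11.5 and F37H8.2 overlapped between rde-1(ne219) and wild-type libraries. Among all features 44.9% were higher and 15.4% lower in the mutant without overlap. The same wild-type libraries ranked the top 10, which favours lower values elsewhere, so nothing is read from this.

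**Figure D1:**
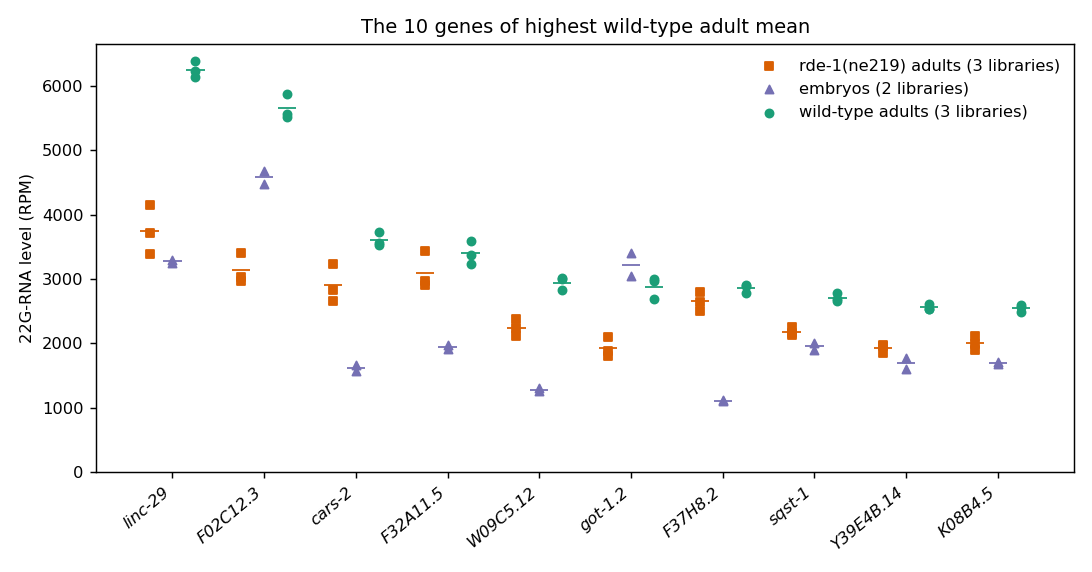
22G-RNA level in RPM of the 10 genes with the highest wild-type mean, in rde-1(ne219) adults (squares), embryos (triangles) and wild-type adults (circles). Each point is a library and each short line a group mean; linc-29 and F02C12.3 stand above the others in wild-type adults, and got-1.2 is the gene whose embryo libraries lie above its wild-type adult ones.

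Named gene families made up a small part of the set. A gene-class symbol was given for 54 of the 183 genes, and 129 carried only a sequence name. The F-box genes, whose products are substrate adaptors of SCF ubiquitin ligases, numbered 6, from fbxa-203 at 311 RPM to fbxb-14 at 1411 RPM in wild-type adults. The BTB and MATH domain genes numbered 4, and their wild-type levels fell into a high pair, bath-45 at 2546 RPM and bath-20 at 2411 RPM, and a low pair, bath-11 at 388 RPM and bath-23 at 323 RPM. Chromatin genes included the linker histone genes his-24 at 2046 RPM and hil-8 at 1283 RPM, the high mobility group gene hmg-11 at 1811 RPM and the histone demethylase gene jmjd-3.1 at 484 RPM. Members with known roles elsewhere included timm-17B.2, of the mitochondrial inner membrane translocase, at 906 RPM and par-2, of embryonic polarity, at 577 RPM. In the gene order of RefSeq's WBcel235 annotation, which matched 162 of the 183 genes, 6 lay next to another of the 183, and these formed the pairs Y71A12B.11 and gadr-5, W08F4.12 and fbxb-14, and Y46G5A.43 and Y46G5A.6. Set against all WAGO-class targets, 66 of the 162 (40.7%) lay next to one, as did 622 of 1834 other WAGO-class targets (33.9%).

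Some of these genes had almost the same profile. Over the 16 libraries of the wild-type, rde-1(ne219), embryo, RDE-1 co-IP and input, dcr-1 RNAi and L4440 groups, the SD of the log2 ratio between any 2 of the 183 genes had a median of 0.43. For Y38H6C.6 and C09G12.7 it was 0.0097, with a mean log2 ratio of 0.03. It was 0.03 for urb-1 and T05H4.9, 0.04 for C36A4.11 and K06B9.6, and 0.044 for AC8.10 and AC8.3. How reads that match several places were counted is not stated, so the values of these 4 pairs may rest on shared reads and are uncertain as values of separate genes.

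The 183 genes held between 63.4% and 63.8% of all WAGO-class RPM in the wild-type libraries that chose them. In other libraries of whole animals and of RDE-1 that share was 59.6% to 59.7% with dcr-1 RNAi, 59.8% to 59.9% on L4440, 60.0% to 60.1% in the RDE-1 co-IP and 58.8% to 59.1% in its input. It was 53.8% to 55.6% in the ALG inputs on L4440 and rde-1 RNAi and 42.1% to 50.9% in the ALG-2 co-IPs. It was lower with ALG-1 pulled down, at 38.7% to 45.3% on either food, and on nrfl-1 RNAi, from 33.7% in the RDE-1 co-IP to 48.1% in the ALG-1 input. All 183 averaged at least 1 RPM in the RDE-1 input and on L4440, and 153 and 152 of them averaged at least 300 RPM there. Their order was also similar, with a Spearman rho against wild-type means over the 183 genes of 0.86 for the RDE-1 input and 0.83 for L4440, values that rest on different tables and are given without a test.

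**Figure D2:**
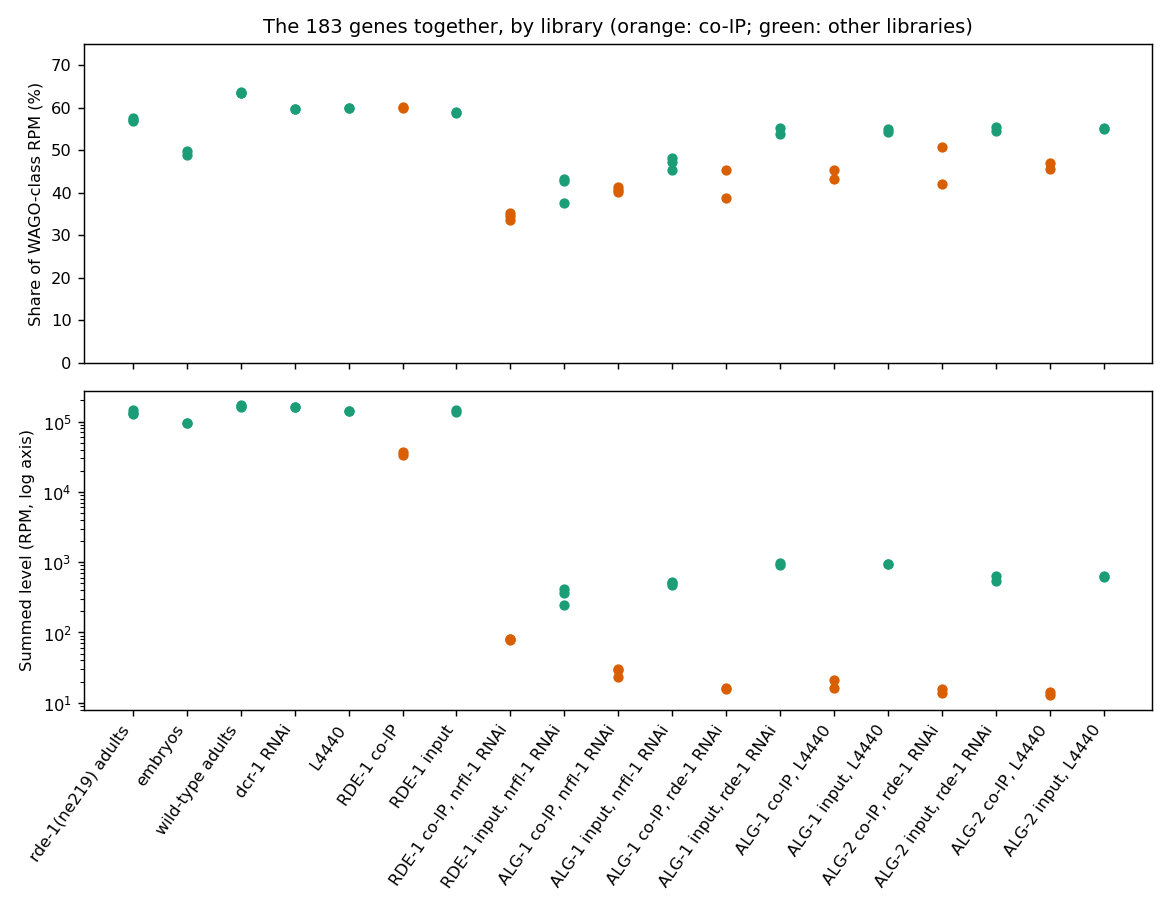
The 183 genes together in every small RNA library: their share of WAGO-class RPM in percent (top) and their summed RPM on a log axis (bottom), with co-IP libraries in orange. The share lies between 56.9% and 63.8% in the rde-1(ne219), wild-type, dcr-1 RNAi, L4440 and RDE-1 libraries without nrfl-1 RNAi, while the sum drops below 1000 RPM in all ALG-1, ALG-2 and nrfl-1 RNAi libraries.

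Summed over the 183 genes, the level was 128675 to 145972 RPM in rde-1(ne219) adults, 96053 to 96161 RPM in embryos, 163149 to 169719 RPM in wild-type adults, 158752 to 160927 RPM with dcr-1 RNAi, 139932 to 143608 RPM on L4440 and 137929 to 148282 RPM in the RDE-1 input. It was 546 to 968 RPM in inputs of tagged ALG-1 or ALG-2 on rde-1 RNAi or L4440 and 246 to 526 RPM in the inputs on nrfl-1 RNAi. The labels name pyrophosphohydrolase for the wild-type, rde-1(ne219), RDE-1 input and RDE-1 co-IP libraries. For the dcr-1 RNAi and L4440 libraries they name only the bacteria, although the levels were as high. Whether enzyme treatment differed among the other groups was not tested.

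The ne219 comparison asked how far these 22G-RNAs depend on RDE-1. Most of the 183 genes were somewhat lower in rde-1(ne219) adults, with a median log2 difference of -0.25 on the log2(RPM + 1) scale. The libraries of the groups did not overlap for 143 genes, 21 of them higher and 122 lower in the mutant, and overlapped for 40. Among all 13650 features with at least 1 RPM on average, 44.9% were higher and 15.4% lower without overlap, and the median was 0.18. The wild-type values chose the genes, so nothing is read from these counts. For the 1915 other WAGO-class targets above that filter the median was -0.02, and for the 18 CSR-class targets of at least 300 RPM it was 0.48. Only 3 of the 183 genes differed by 1 or more on the log2 scale.

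The gene furthest down in the mutant was F59C12.4 (WBGene00045272), with 619, 720 and 773 RPM in rde-1(ne219) adults, against 1686, 1911 and 1925 RPM in wild-type adults (log2 difference -1.39). Next was kel-1, which encodes a kelch-repeat protein, with 147, 151 and 169 RPM in rde-1(ne219) adults, against 304, 311 and 341 RPM in wild-type adults (-1.03). C38D4.7 averaged 214 RPM in rde-1(ne219) adults and 412 RPM in wild-type adults. The groups did not overlap for any of these 3 genes. The gene furthest up was F15D4.5 (WBGene00008862), with 899, 910 and 1021 RPM in rde-1(ne219) adults, against 374, 394 and 403 RPM in wild-type adults (1.27). Y20F4.4 averaged 783 RPM in rde-1(ne219) adults and 423 RPM in wild-type adults, and pdfr-1 averaged 545 RPM in rde-1(ne219) adults and 301 RPM in wild-type adults. These 3 also did not overlap. The linker histone genes parted, with log2 differences of -0.41 for his-24 and 0.28 for hil-8. With each library rescaled to its WAGO-class rows the median of the 183 genes was -0.11.

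The embryo libraries addressed which of these 22G-RNAs are present early in life. All 183 genes had values above 0 in both embryo libraries, and most were at a lower level there than in adults. The median log2 difference was -0.94 in RPM, -0.52 with each library rescaled to its WAGO-class rows and -0.27 centred on library medians. In RPM 156 genes were lower and 20 higher without overlap of libraries, and 7 overlapped. Of all 9554 features above the filter, 70.3% were lower and 13.7% higher without overlap, with a median of -0.67, so a fall was also the common course of the table. Since the adult libraries are those that chose the genes, these values are not tested either. In embryos 104 of the 183 genes averaged at least 300 RPM and 79 did not, while 27 WAGO-class targets outside the set did. The 183 genes held 48.9% to 49.8% of WAGO-class RPM in embryos, against 63.4% to 63.8% in adults.

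Over the 183 genes the Spearman rho of embryo against wild-type adult means was 0.72, and 8 of the adult top 10 were in the embryo top 10. In embryos F02C12.3 was the highest, with 4477 and 4683 RPM, against 5523 to 5877 RPM in adults, and its log2 difference turned positive on other scales (0.12 rescaled to WAGO-class rows and 0.37 centred). The 22G-RNAs of linc-29 were at 3250 and 3298 RPM in embryos, against 6138 to 6387 RPM in adults. Those of got-1.2 were at 3038 and 3399 RPM in embryos, against 2683 to 3000 RPM in adults, and were the only ones of the top 10 that were higher in embryos. The largest difference upward was that of sdz-26, named as a SKN-1-dependent zygotic transcript, with 929 and 952 RPM in embryos, against 352, 377 and 378 RPM in adults (log2 difference 1.35). Y110A2AL.10 followed with 882 and 905 RPM in embryos, against 389 to 395 RPM in adults (1.19). F15D4.5, the gene furthest up in rde-1(ne219) adults, had 738 and 783 RPM in embryos, against 374 to 403 RPM in adults, and both of these comparisons use the same adult libraries. The largest difference downward was that of the near-identical pair K06B9.6 and C36A4.11. K06B9.6 had 21.4 and 21.6 RPM in embryos, against 320, 337 and 356 RPM in adults (log2 difference -3.91), and C36A4.11 had 22.2 and 23 RPM in embryos, against 332, 351 and 363 RPM in adults. F07B7.6 had 54.8 and 58.4 RPM in embryos, against 361, 376 and 390 RPM in adults (-2.71). All 4 BTB and MATH domain genes were lower in embryos without overlap. Their log2 differences ran from -0.65 for bath-11 (0.02 centred on library medians) to -1.51 for bath-20. Of the chromatin genes named above, his-24 (-0.87), hil-8 (-1.19) and hmg-11 (-0.73) were lower without overlap, and jmjd-3.1 was higher (0.55).

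**Figure D3:**
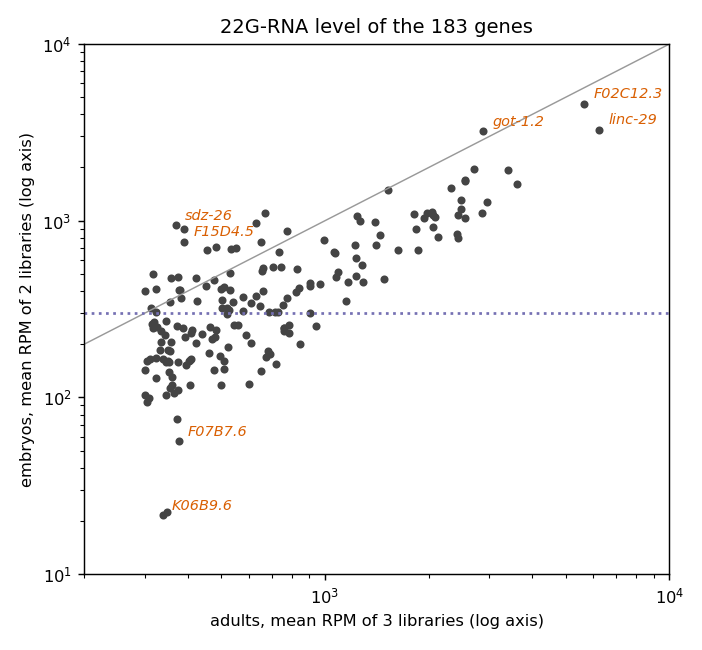
Mean 22G-RNA level of each of the 183 genes in embryos (vertical, 2 libraries) against adults (horizontal, 3 libraries), both in RPM on log axes; the grey line marks equal levels and the dotted line 300 RPM in embryos. Most genes lie below the grey line, sdz-26 and F15D4.5 lie above it, and K06B9.6 and C36A4.11 form the pair at the bottom.

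The GFP::RDE-1 co-IP asked which small RNAs are bound by RDE-1. Every one of the 183 genes was at a lower level in the co-IP than in its input (limma on log2(RPM + 1), adjusted p under 0.05 over all features), with a median log2 difference of -2.0 and a span between the 10th and 90th percentiles of only -2.18 to -1.82. Of all 9046 features tested, 87.2% were lower, with a median of -1.87, so a lower level was also the common course of the table. The other WAGO-class targets had a median of -1.92 and the CSR-class targets of at least 300 RPM one of -2.48. For linc-29 the levels were 1193 and 1037 RPM in the co-IP, against 4320 and 4514 RPM in the input (log2 difference -1.99, SE 0.17, limma adjusted p = 0.00011). For F02C12.3 they were 1047 and 1036 RPM in the co-IP, against 4446 and 5528 RPM in the input. Neither gene overlapped between the groups. MicroRNAs held 62.1% and 74.4% of the listed RPM in the co-IP, against 29.4% and 33.0% in the input, and WAGO-class rows held 6.65% and 7.18% in the co-IP, against 36.8% and 39.4% in the input.

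Few of these genes were called on the scale of the WAGO class, to which they themselves contribute. They held 60.0% to 60.1% of that class's RPM in the co-IP and 58.8% to 59.1% in the input. Rescaling to rows that they dominate limits how far they can differ together, so nothing is read from the small counts. After each library was rescaled to its WAGO-class rows, 4 of the 183 genes were higher and 3 lower in the co-IP (limma adjusted p under 0.05), against 11.6% and 8.66% of all features on that scale. The gene furthest up on that scale was rnh-1.3, an RNase H gene, with a rescaled log2 difference of 0.91 (SE 0.14, limma adjusted p = 0.013). Its RPM were 96.3 and 67.6 in the co-IP, against 172 and 182 in the input. Next were timm-17B.2 with 296 and 214 RPM in the co-IP, against 574 and 583 RPM in the input (rescaled 0.85), F59C12.4 with 219 and 164 RPM in the co-IP, against 436 and 566 RPM in the input (0.65), and hmg-11 with 365 and 324 RPM in the co-IP, against 1073 and 1096 RPM in the input (0.39). In RPM all 4 were lower in the co-IP. At the other end K06B9.6 had 41.9 and 40.6 RPM in the co-IP, against 278 and 304 RPM in the input (log2 difference in RPM -2.79, SE 0.11, limma adjusted p = 4.98e-05; rescaled -0.76). C36A4.11, which may share its reads, had 47 and 44.3 RPM in the co-IP, against 292 and 323 RPM in the input, and F59H6.14 had 99.3 and 88.8 RPM in the co-IP, against 478 and 517 RPM in the input.

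**Figure D4:**
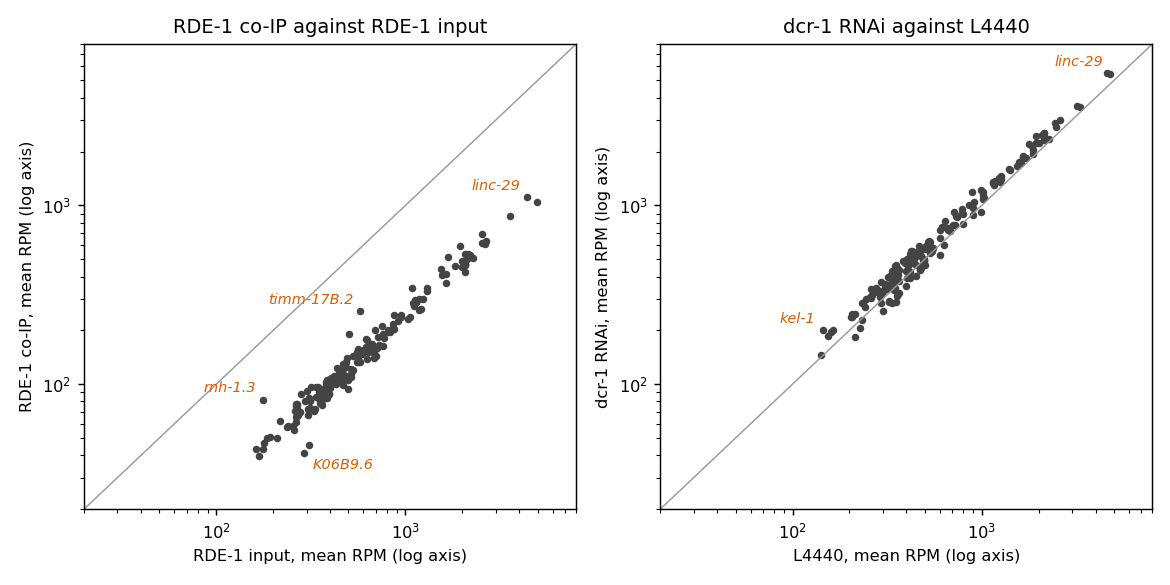
Mean 22G-RNA level of each of the 183 genes, in RPM on log axes, in the RDE-1 co-IP against its input (left) and with dcr-1 RNAi against L4440 (right), 2 libraries per group; the grey line marks equal levels. In the co-IP the genes run parallel to the line at about the median log2 difference of -2.0, with rnh-1.3 and timm-17B.2 above the band and K06B9.6 below it, and with dcr-1 RNAi they lie just above the line at a median of 0.19.

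Knockdown of dcr-1 addressed the part of Dicer in making small RNAs. The 22G-RNAs of these genes were not reduced as a group: 108 of the 183 rose and 5 fell with dcr-1 RNAi (limma adjusted p under 0.05), with a median log2 difference of 0.19. Of all 7704 features tested 17.8% rose and 3.36% fell, and their median was 0.21. The 1902 other WAGO-class targets tested had a median of 0.19 as well, with 448 higher and 39 lower. The listed RPM moved toward 22G-RNAs at the same time, since microRNAs held 32.9% and 34.7% of it with dcr-1 RNAi, against 44.9% and 43.2% on L4440. Rescaled to WAGO-class rows, 3 genes were higher and 21 lower, against 1.21% and 4.76% of all features on that scale, so the direction of the count depends on what a library is scaled to. Without dcr-1 RNAi replicate 1, with no filter on low values, or without L4440 replicate 1, the count of higher genes was 0, 0 and 22, and without the dcr-1 RNAi column that matches no single labelled sample it was 36. The count of lower genes was 0 in each of these 4 fits and 11 without L4440 replicate 2. In fits that leave 1 library in a group, that library is assumed to vary like the others. No share of all features is given for these refits. Whether the set alone or the whole table lost calls cannot be told from them.

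The top genes showed the shift in RPM as a small one. linc-29 had 5542 and 5374 RPM with dcr-1 RNAi, against 4719 and 4833 RPM on L4440 (log2 difference 0.19, SE 0.04, limma adjusted p = 0.0086; -0.01 centred on library medians). F02C12.3 had 5481 and 5530 RPM with dcr-1 RNAi, against 4608 and 4646 RPM on L4440 (0.25, SE 0.04, adjusted p = 0.0016 in limma). The groups did not overlap for either gene. The 3 largest rises were those of kel-1, Y54G11A.14 and rpi-2, and these 3 were also the ones higher after rescaling. kel-1 had 207 and 193 RPM with dcr-1 RNAi, against 139 and 150 RPM on L4440 (0.47, SE 0.08, limma adjusted p = 0.0010). Y54G11A.14 had 1207 and 1160 RPM with dcr-1 RNAi, against 816 and 953 RPM on L4440 (0.42, SE 0.07). For rpi-2 the levels were 467 and 464 RPM with dcr-1 RNAi, against 327 and 374 RPM on L4440 (0.41, SE 0.07). The genes that fell were Y73B6BL.16, dct-10, K03D3.8, F40D4.13 and rac-3, the last 2 outside the rule for named genes and added after their values were seen. Y73B6BL.16 had 286 and 290 RPM with dcr-1 RNAi, against 377 and 329 RPM on L4440 (-0.29, SE 0.07, limma adjusted p = 0.013). Falls of dct-10 (-0.24, SE 0.07) and K03D3.8 (-0.22, SE 0.07) were smaller. All 5 were also among the 21 lower after rescaling, with K06B9.6, C36A4.11 and sosi-1. Of the chromatin genes, hil-8 (0.22), hmg-11 (0.17 in RPM and -0.01 rescaled) and jmjd-3.1 (0.26) rose in RPM, while his-24 (0.10, limma adjusted p = 0.13) did not pass.

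The ALG-1 and ALG-2 libraries held little of these 22G-RNAs, and the co-IPs still less. On L4440 the 183 genes summed to 16.4 and 21.1 RPM with ALG-1 pulled down, against 934 and 940 RPM in its input, and to 12.7 and 14.3 RPM in the ALG-2 co-IP, against 616 and 631 RPM in its input. On rde-1 RNAi they summed to 15.8 and 16.1 RPM with ALG-1 pulled down, against 905 and 968 RPM in its input, and to 13.8 and 15.6 RPM in the ALG-2 co-IP, against 546 and 632 RPM in its input. No co-IP library overlapped with an input in these sums. MicroRNAs held at least 99.4% of the listed RPM in these co-IPs. A filter on low values would keep genes through their input level, so the counts here are over all 183 genes with no filter, in which 182 (ALG-1, L4440), 181 (ALG-1, rde-1 RNAi), 181 (ALG-2, L4440) and 179 (ALG-2, rde-1 RNAi) were lower in the co-IP (limma adjusted p under 0.05). Of all features 36.8%, 34.1%, 34% and 35.7% were lower in the same fits, most of the rest being near 0 in both groups; with the filter the shares of all features were 95.3%, 94.8%, 94.5% and 94.5%.

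These counts are on the RPM scale, where nearly every feature that passed the filter was lower. With each library rescaled to its WAGO-class rows, 0 genes were higher and 3 lower of 123 tested with ALG-1 on L4440, against 13.4% and 3.87% of all features. With ALG-1 on rde-1 RNAi, 1 was higher and 10 were lower of 123, against 13.7% and 9.86%. With ALG-2 on L4440, 0 were higher and 2 lower of 89, against 12% and 8.17%, and on rde-1 RNAi 0 were higher and 2 lower of 89, against 12.6% and 13.9%. Centred on library medians the direction of most calls turned. The genes' median co-IP levels were 0 to 0.06 RPM per library, below the pseudocount of 1. A centred difference then mostly follows the input level of the genes that the filter kept. The centred counts that follow are therefore not read as enrichment. With ALG-1, 82 were higher and 19 lower of 138 on L4440, against 43.1% and 33.4% of all features, and 74 were higher and 23 lower of 138 on rde-1 RNAi, against 44.3% and 35.2%. With ALG-2, 62 were higher and 12 lower of 93 on L4440, against 44.8% and 37.4%, and 66 were higher and 8 lower of 93 on rde-1 RNAi, against 44.3% and 37.8%.

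On the log2(RPM + 1) scale the largest falls were those of F02C12.3 and Y52B11A.18 in all 4 of these comparisons. On L4440 F02C12.3 had 1.28 and 0.30 RPM with ALG-1 pulled down, against 78.8 and 70.9 RPM in its input (log2 difference -5.46, SE 0.28, limma adjusted p = 4.60e-10). It had 0.90 and 0.55 RPM in the ALG-2 co-IP, against 48.2 and 54.1 RPM in its input (-4.92, SE 0.19). Y52B11A.18 had 1.46 and 1.32 RPM with ALG-1 pulled down, against 59.3 and 58.3 RPM in its input, and 0.81 and 0.63 RPM in the ALG-2 co-IP, against 49.7 and 45.7 RPM in its input. None of these groups overlapped. The pseudocount of 1 understates the falls, as co-IP levels were near or below it, so this order favours genes of high input. By the ratio of means on L4440 with ALG-1, cars-2 was 71.2-fold lower and Y52B11A.18 42.3-fold lower. Next on the log2(RPM + 1) scale was cars-2 (ALG-1, L4440), W09C5.12 (ALG-1, rde-1 RNAi), K08B4.5 (ALG-2, L4440) and linc-29 (ALG-2, rde-1 RNAi), with log2 differences of -4.28, -4.29, -3.62 and -3.67. Y52B11A.18 was not among the top 10 of wild-type adults but ranked first or second of the 183 genes in every one of these inputs.

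Knockdown of rde-1 gave no call among these genes in the ALG libraries. Among the inputs no gene of the set was called between rde-1 RNAi and L4440, in limma fits that tested 138 of the 183 genes in ALG-1 animals and 93 in ALG-2 animals. Of all features 0.287% and 0.871% were called in the same fits. At an unadjusted limma p under 0.05 there were 8 and 6 genes of the set. No share of all features is given at that looser threshold, so nothing is read from these numbers. Nor was the difference between co-IP and input called to change for any gene, against 0.344% and 0.311% of all features called. At an unadjusted limma p under 0.05 there were 3 and 4, again without a share of all features. Co-IP levels of most of these genes were below the pseudocount of 1. This difference then mostly follows the inputs and could hardly show a change in the co-IP, so nothing is read from it. The median log2 differences of the inputs were -0.02 and -0.07.

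With nrfl-1 RNAi both co-IPs were low in these 22G-RNAs. The 183 genes summed to 77.1, 79.5 and 81.1 RPM in the RDE-1 co-IP, against 246, 365 and 409 RPM in its input, and to 23.5, 29.2 and 30.6 RPM in that of ALG-1, against 480, 501 and 526 RPM in its input. Over all 183 genes with no filter, 113 were lower in the RDE-1 co-IP and 181 in the ALG-1 co-IP (limma adjusted p under 0.05), against 26.8% and 44.4% of all features. With the filter, 62 of 64 and 76 of 76 were lower, against 73.1% and 95.2% of all features. The filter kept genes mainly through their input level, so nothing is read from these counts or from the centred ones below. Rescaled to WAGO-class rows, 2 were higher and 9 lower of 62 in the RDE-1 co-IP, against 30.5% and 27.3% of all features, and 0 were higher and 3 lower of 72 in the ALG-1 co-IP, against 24.4% and 13.5%. Centred on library medians, 2 were higher and 5 lower of 64 in the RDE-1 co-IP, against 24.7% and 24.2%, and 27 were higher and 14 lower of 76 in the ALG-1 co-IP, against 37.3% and 27.4%. On the log2(RPM + 1) scale the largest falls in the RDE-1 co-IP were those of B0250.8, bath-20 and bath-45. B0250.8 had 0.04, 0.17 and 0.38 RPM in the co-IP, against 3.15, 3.42 and 6.75 RPM in the input (log2 difference -2.13, SE 0.29, limma adjusted p = 5.39e-05). For bath-20 the levels were 0.26, 0.83 and 1.04 RPM in the co-IP, against 3.63, 7.47 and 8.20 RPM in the input (-2.09, SE 0.33), and bath-45 averaged 0.17 RPM when bound and 3.96 RPM in the input. All 3 were without overlap. In the ALG-1 co-IP the largest on that scale, which favours genes of high input, were those of F02C12.3 (-3.58, SE 0.22), bath-20 (-3.22, SE 0.19) and linc-29 (-3.12, SE 0.20). The 2 tested genes not called in the RDE-1 co-IP, named after their values were seen, were F15D4.5 (limma adjusted p = 0.050412) and T26E3.7, which had 1.2, 2.91 and 4.88 RPM in the co-IP, against 2.45, 2.66 and 2.75 RPM in the input. The T26E3.7 groups overlapped. The columns of 2 of the 3 RDE-1 inputs match no single labelled sample, and without them 35 of 42 genes tested were lower, with the 1 input library left assumed to vary like the co-IP libraries.

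The mRNA of the target genes was compared between rde-1(ram40) and wild-type adults. The rde-1 transcript itself had 0.83, 0.86 and 1.07 normalized counts in rde-1(ram40), against 1389, 1506 and 1619 in wild type. Of the 183 genes, 164 had a row in the mRNA table and 98 of these averaged at least 10 normalized counts, as did 1222 of 1840 other WAGO-class targets and 11331 of 30122 genes in all. None of the 98 was called (limma on log2(normalized count + 1)), against 0.362% of all genes tested. At an unadjusted limma p under 0.05 there were 12. No share of all genes is given at that looser threshold, so nothing is read from the 12. Their median log2 difference was -0.07, against 0.02 over all genes tested. Libraries did not overlap for 9 genes that were higher and 10 that were lower in rde-1(ram40), against 6.77% and 6.16% of all genes tested.

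The top 22G-RNA targets had low to moderate mRNA counts. linc-29 had 22.5, 29.1 and 30.3 normalized counts in rde-1(ram40), against 12.7, 22.6 and 23.2 in wild type, and the groups overlapped. F02C12.3 had 11.9, 13.3 and 16.1 normalized counts in rde-1(ram40), against 9.79, 11.4 and 13.9 in wild type, and also overlapped. sqst-1 had 330, 360 and 370 normalized counts in rde-1(ram40), against 426, 432 and 500 in wild type, with no overlap (log2 difference -0.35, SE 0.11, limma adjusted p = 0.40). got-1.2 had 263, 295 and 330 in rde-1(ram40), against 326, 349 and 351 in wild type, which overlapped. The highest counts were those of frm-1, a FERM-domain gene, and ZC247.1, the 2 genes above 1000. frm-1 had 1908, 1953 and 2045 normalized counts in rde-1(ram40), against 1704, 2020 and 2170 in wild type. The smallest unadjusted p was that of Y54G2A.21, named after its values were seen, with 113, 113 and 140 normalized counts in rde-1(ram40), against 154, 190 and 196 in wild type (log2 difference -0.56, SE 0.15, limma adjusted p = 0.34).

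**Figure D5:**
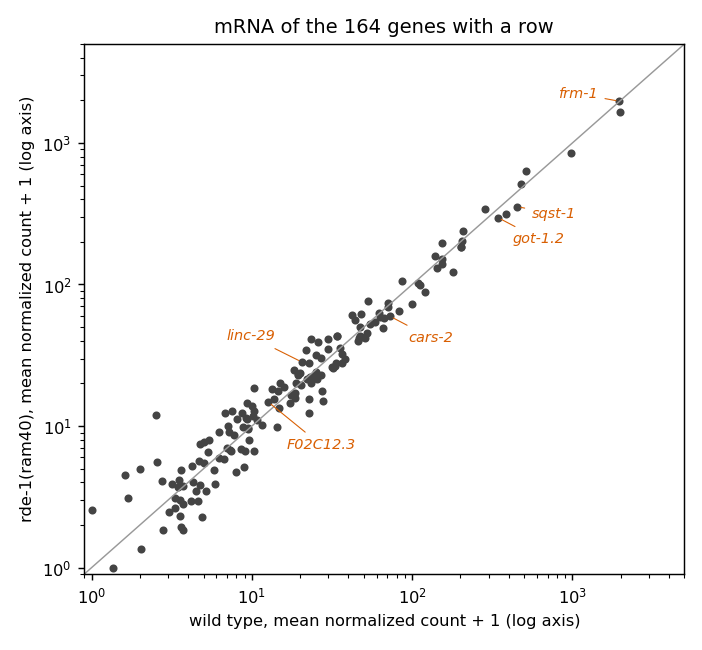
Mean normalized mRNA count, plus 1, of the 164 genes with a row, in rde-1(ram40) (vertical) against wild type (horizontal) on log axes, 3 libraries each; the grey line marks equal levels. The genes scatter about the line, and frm-1 and ZC247.1 are the 2 with means above 1000.

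Other genes of the pathway and of the tissues were read in the same mRNA fit. Of 38 tested genes of siRNA amplification and the WAGO pathway, 1 fell in rde-1(ram40), which was rde-1, and none rose. All 8 oocyte and germline markers were tested and none was called, with a summed level of 69014 to 81324 in rde-1(ram40), against 58454 to 78100 in wild type. No sperm marker of the 9 listed passed the filter, and their sums were 9.41 to 31.3 in rde-1(ram40), against 16.5 to 72.5 in wild type. Body muscle markers summed to 2840 to 4288 in rde-1(ram40), against 4490 to 6183 in wild type, with none of the 3 called in limma and all 3 at an unadjusted p under 0.05. Intestine markers summed to 131636 to 150561 in rde-1(ram40), against 153277 to 235110 in wild type. None of the 6 was called in limma and 2 were at an unadjusted p under 0.05, the vitellogenin genes vit-1 and vit-2. Vitellogenin counts made up most of that sum, with vit-6 alone at 66797 to 79065 in rde-1(ram40), against 73400 to 110424 in wild type. Of the other intestine markers, ges-1 had a log2 difference of 0.03 and elt-2 one of -0.35, neither called. What part these marker differences have in the genes' mRNA values was not tested. Among the pathway's own genes, smut-1, rde-11, wago-2 and nrde-3 were themselves WAGO-class targets in wild-type adults, at 25.6, 169, 244 and 3.08 RPM, all below the threshold of the set.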

How the data were processed

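The deposited small RNA values are RPM per feature and class in 8 tables, made by the authors with tinyRNA, per the labels' protocols. The deposited mRNA signal values are normalized counts from fastp, STAR, RSEM and DESeq2, per the submitters' processing notes. No genome build is named in the sources used here. Features averaging at least 1 RPM (10 normalized counts for mRNA) were tested on log2(value + 1) with limma 3.58.1 (lmFit, eBayes with trend) in R 4.3.3, two-sided, within one table, with Benjamini-Hochberg adjustment over all features and a threshold of 0.05, and checked on simulated data. The genes and lists were chosen with earlier results of these data known. Named genes are the 10 of highest wild-type mean, up to 3 largest changes per direction and comparison among those called without library overlap, and 3 on each side of the threshold. Gene names are those of the tables, and 127 of the genes had a symbol in a gene name table. Samples were grouped by title, and 3 columns matched a group but no single labelled sample. Replicate numbers were not used to pair the samples. Alternatives were another pseudocount, no filter, 2 rescalings, a replicate block and leaving out each library.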

Additional observations from a re-analysis of the deposited data

How the results depend on the processing

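The counts of genes called between groups changed with what a library was scaled to. The shares of all features on the rescaled and centred scales stand beside the counts in the results. None is given for the centred dcr-1 RNAi and RDE-1 co-IP counts, so nothing about these genes is read from those counts. The genes tested numbered 183 for dcr-1 RNAi and the RDE-1 co-IP. On the rescaled and the centred scale they numbered 62 and 64 for the RDE-1 co-IP and 72 and 76 for the ALG-1 co-IP on nrfl-1 RNAi. On either food they numbered 123 and 138 for ALG-1 and 89 and 93 for ALG-2. The genes' own large share of WAGO-class RPM limits the rescaled counts. Centred counts for the ALG and nrfl-1 RNAi libraries rest on genes that the filter kept mainly through their input level. With each library rescaled to its WAGO-class rows, the genes higher and lower were 3 and 21 with dcr-1 RNAi, 4 and 3 in the RDE-1 co-IP, and 2 and 9 in the RDE-1 co-IP on nrfl-1 RNAi. On the same scale those lower were 3 in the ALG-1 co-IP on nrfl-1 RNAi, 3 in the ALG-1 co-IP on L4440, 10 (with 1 higher) with ALG-1 and rde-1 RNAi, and 2 in the ALG-2 co-IP on L4440 and 2 on rde-1 RNAi. Centred on library medians, the genes higher and lower were 1 and 20 with dcr-1 RNAi, 2 and 35 in the RDE-1 co-IP, 2 and 5 in the RDE-1 co-IP on nrfl-1 RNAi, 27 and 14 in the ALG-1 co-IP on nrfl-1 RNAi, 82 and 19 in the ALG-1 co-IP on L4440, 74 and 23 with ALG-1 and rde-1 RNAi, 62 and 12 in the ALG-2 co-IP on L4440, and 66 and 8 in the ALG-2 co-IP on rde-1 RNAi. The medians over the genes were -0.41 centred and -0.11 rescaled in rde-1(ne219), and -0.27 centred and -0.52 rescaled in embryos.

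With no filter on low values, 0 genes were higher and 0 lower with dcr-1 RNAi (limma, 115 at an unadjusted p under 0.05), and those lower were 113 and 181 in the RDE-1 and ALG-1 co-IPs on nrfl-1 RNAi, and 181 and 179 in the ALG-2 co-IP on L4440 and rde-1 RNAi, of 183 in each. Without the columns of no single labelled sample, 36 genes were higher and 0 lower with dcr-1 RNAi, and 35 were lower in the RDE-1 co-IP on nrfl-1 RNAi. Apart from the filter, where more or fewer genes were tested, the cause was not tested. No share of all features is given for the dcr-1 RNAi counts in these fits, so nothing is read from them.

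Leaving out each library in turn gave 0 to 110 genes higher and 0 to 11 lower with dcr-1 RNAi, where the lone library left in a group is assumed to vary like the other group. For the RDE-1 co-IP all 183 genes were lower throughout. The other fits kept the filter, so fewer genes were tested. They were kept mainly through their input level, so a lower level in the co-IP was largely built into these counts. Genes lower numbered 49 to 69 of 53 to 73 tested in the RDE-1 co-IP and 61 to 91 of as many tested in the ALG-1 co-IP on nrfl-1 RNAi, against 64.6% to 77.9% and 93.5% to 96.1% of all features. They numbered 115 to 149 in the ALG-1 co-IP on L4440, 118 to 149 on rde-1 RNAi and 76 to 106 in the ALG-2 co-IP on either, which was every gene tested in each fit, against 93.8% to 95.6% of all features. Between ALG-2 inputs 0 to 1 were lower. The medians ran over -0.31 to -0.22 in rde-1(ne219) and -0.95 to -0.92 in embryos.

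The replicate numbers were not used to pair the samples, since in no comparison with 3 pairs were all correlations of same-numbered libraries positive. In groups of 2 libraries these correlations cannot show or exclude pairing. With the replicate number as a block, the counts were unchanged in each comparison that allowed it. For example, 183 were lower in the RDE-1 co-IP and 76 in the ALG-1 co-IP on nrfl-1 RNAi. The rde-1(ne219) median was -0.25 with the block. Of the alternatives for single named genes, 582 kept direction and side of the threshold, 79 kept direction but lost the call, 4 gained a call, 44 untested values moved by more than the spread between replicates, and 27 reversed.

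Centred on library medians and rescaled to WAGO-class rows in turn, log2 differences that reversed were, in the RDE-1 co-IP, 0.65 and 0.91 for rnh-1.3, 0.58 and 0.85 for timm-17B.2, 0.39 and 0.65 for F59C12.4 and 0.12 and 0.39 for hmg-11. They were 0.61 and 0.50 for F15D4.5 in the RDE-1 co-IP on nrfl-1 RNAi, -0.033 and -0.0085 for hmg-11 and -0.10 and -0.077 for his-24 with dcr-1 RNAi, and 0.37 and 0.12 for F02C12.3 in embryos. Reversed when centred were linc-29 with dcr-1 RNAi (-0.0099), frm-1 mRNA (-0.018) and bath-11 in embryos (0.025), and when rescaled linc-29 in the RDE-1 co-IP (0.059) and F32A11.5 in rde-1(ne219) (0.0069). With a pseudocount of 0.1, T26E3.7 in the RDE-1 co-IP on nrfl-1 RNAi was at -0.014. Leaving out each library gave -0.30 to 0.41 for T26E3.7 and -0.089 to 0.085 for frm-1 mRNA. Read depth is unknown, so what it limits could not be set out in counts, and values under 1 RPM in the ALG-1, ALG-2 and nrfl-1 RNAi libraries are the least certain.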
